A study of Mus musculus with 10 samples.

Results

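The genes described here make cholesterol, sense it, move it within the cell and send it out of the cell. They were taken as a fixed list of 30 gene symbols, of 55357 gene identifiers counted, and all 30 were found among the counted genes. By role they comprise 18 enzymes of synthesis (Acat2, Hmgcs1, Mvk, Pmvk, Mvd, Idi1, Fdps, Fdft1, Sqle, Lss, Cyp51, Tm7sf2, Msmo1, Nsdhl, Hsd17b7, Ebp, Sc5d and Dhcr7), 5 sterol-sensing genes (Srebf1, Srebf2, Insig1, Insig2 and Scap), 1 sterol transporter (Stard4), 2 oxysterol receptors (Nr1h2 and Nr1h3) and 4 targets of those receptors (Abca1, Abcg1, Mylip and Apoe). No lipoprotein receptor is among the 30, so uptake is represented only by Mylip, whose product marks lipoprotein receptors for breakdown, and by a separate list of receptors.

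The study measured polyadenylated RNA in mice on a C57BL/6 background with and without CD163, a scavenger receptor of macrophages for haemoglobin bound to haptoglobin. All 6 heart libraries came from Cd163-/- hearts, 3 from animals given saline and 3 from animals given mouse recombinant IL-10, an anti-inflammatory cytokine. The protocol describes male mice aged 8 weeks at surgery that constricts the transverse aorta, a model of pressure overload, and IL-10 injected subcutaneously, at a dose of 50 µg/kg/day, on set days between day 0 and day 27 after it. The labels of the single hearts name genotype and treatment but no surgery, and no wild type heart is among the libraries analysed here. The 4 macrophage libraries came from peritoneal cells drawn out with thioglycolate, 2 from wild type and 2 from Cd163-/- mice, kept in culture and all exposed to dexamethasone, a synthetic glucocorticoid, at 100 nM for 48 hours. No macrophage library without dexamethasone is among them.

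On GRCm38 with the GENCODE annotation, the genes that the results turn on are Mvd (chr8:122433601-122443422, minus strand), Hsd17b7 (chr1:169949535-169969241, minus strand), Dhcr7 (chr7:143823145-143848410, plus strand), Nr1h3 (chr2:91184061-91202834, minus strand) and the pumps Abca1 (chr4:53030787-53159895, minus strand) and Abcg1 (chr17:31057675-31117988, plus strand).

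Cholesterol is built from acetyl-CoA by way of mevalonate, farnesyl diphosphate, squalene and lanosterol. When sterol in the endoplasmic reticulum runs low, SCAP carries SREBP2 (the product of Srebf2) to the Golgi, where it is cut, and the released fragment switches on the synthesis enzymes together with Insig1 and Stard4. INSIG proteins hold SCAP back when sterol is plentiful. Oxysterols activate the liver X receptors LXRα (Nr1h3) and LXRβ (Nr1h2), which pair with retinoid X receptors and switch on the efflux pumps Abca1 and Abcg1, the lipoprotein component Apoe and Mylip, and in macrophages this arm unloads cholesterol taken in with dead cells and lipoproteins.

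RefSeq promoter windows, from 250 bases before to 50 bases after the start on GRCm38.p6, were at hand for 25 of the 30 genes, 7 of which have several windows. The CCAAT box, read by the factor NF-Y that works beside SREBPs, was searched as CCAAT on both strands (it reads ATTGG on the other strand). It was found in 14 of the 15 synthesis genes with a window, all but Acat2, in 4 of the 5 sterol-sensing genes, in 0 of the 2 receptors and in 1 of the 3 LXR targets with a window (Mylip), against 41.1% of all 27025 genes with a window. The sterol regulatory element, searched as TCACNCCAC on both strands, was found in Hmgcs1 alone of the 25, from 137 to 129 bases before the start, against 1.44% of all genes. The LXR element, searched as 2 copies of AGGTCA spaced by 4 bases with up to 2 mismatches on both strands, was found in Dhcr7 alone, against 3.47% of all genes. The 180 bases before the start are printed for 5 genes, with every CCAAT box and sterol regulatory element in capitals. Hmgcs1 (chr13:119690171-119690350, plus strand) is shown because it holds both elements, and Mvd (chr8:122443423-122443602, minus strand) and Sc5d (chr9:42264301-42264480, minus strand) because they fell in knockout macrophages. Ebp (chrX:8193513-8193692, minus strand) is an enzyme of the same pathway that was not called there. Abca1 (chr4:53159896-53160075, minus strand) is the efflux pump that fell, and it has no match to these patterns at the mismatches allowed.
Hmgcs1: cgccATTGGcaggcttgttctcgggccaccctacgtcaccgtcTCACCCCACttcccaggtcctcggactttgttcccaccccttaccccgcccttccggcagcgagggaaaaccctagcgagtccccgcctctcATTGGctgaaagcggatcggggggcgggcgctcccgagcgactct
Mvd: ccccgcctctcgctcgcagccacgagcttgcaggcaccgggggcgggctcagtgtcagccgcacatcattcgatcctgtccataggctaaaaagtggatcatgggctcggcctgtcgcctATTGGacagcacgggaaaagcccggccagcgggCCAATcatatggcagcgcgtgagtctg
Sc5d: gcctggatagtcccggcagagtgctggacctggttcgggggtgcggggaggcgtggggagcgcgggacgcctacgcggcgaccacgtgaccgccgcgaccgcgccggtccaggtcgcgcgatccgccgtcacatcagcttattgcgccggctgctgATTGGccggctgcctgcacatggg
Ebp: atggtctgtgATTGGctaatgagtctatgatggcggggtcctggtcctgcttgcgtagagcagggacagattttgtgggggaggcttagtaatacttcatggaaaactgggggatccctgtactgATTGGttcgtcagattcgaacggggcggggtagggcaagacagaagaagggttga
Abca1: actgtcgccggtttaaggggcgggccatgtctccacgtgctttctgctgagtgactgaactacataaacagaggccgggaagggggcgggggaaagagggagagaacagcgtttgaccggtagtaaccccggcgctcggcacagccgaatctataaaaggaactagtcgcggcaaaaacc
A match describes letters in this window and is not a bound site. Lack of a match does not show that an element is absent. Copies with more mismatches than allowed, or outside the window, were not searched for.

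Heart libraries held 13483335 to 14939465 counts and macrophage libraries 16729749 to 18619288, and 33.7% to 39.4% of heart counts came from mitochondrially encoded genes. Levels are given as CPM, the usual counts scaled to a common library size, here with TMM factors, and 3 counts, taken as the floor of detection, equal between 0.149 and 0.22 CPM. Cd163 itself stood at 20.9 and 13.03 CPM in wild type and 0.448 and 0.778 CPM in knockout macrophages, a log2 fold change of -4.79 (SE 0.39, adjusted p = 0.0013). In the hearts, all labelled Cd163-/-, it lay between 2.39 and 3.65 CPM, from 34 to 57 counts, and which part of the gene was deleted is not given in the sources used here. The extraction protocol speaks of livers, but of the hepatocyte markers Apoa1, Apob and Serpina1a had 0 counts in every heart, and the 5 hepatocyte markers summed to at most 1.18 CPM, against at least 30979 CPM for the 8 cardiomyocyte markers. The labels do not state that each library of a group stands for its own animal or culture, and every p-value is therefore relative to the spread among these libraries alone, which may be technical.

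In knockout macrophages the enzymes that make cholesterol were mostly lower than in wild type, while the LXR arm split. Of the 30 genes, 13 fell and 1 rose at an adjusted p under 0.05 in edgeR's quasi-likelihood test, where 13.3% of all 13861 genes tested fell and 13.1% rose. The 13 are 10 of the 18 synthesis enzymes, Insig1, the receptor Nr1h3 and the pump Abca1, and the gene that rose is Dhcr7, which codes for the enzyme that reduces 7-dehydrocholesterol to cholesterol. The median log2 fold change of the 30 genes was -0.43, against 0.012 over all genes tested. Knockout and wild type libraries did not overlap, with the knockout lower, in 22 of the 30 genes, against 34.1% of all genes, and with the knockout higher in 3, against 35.3% of all genes.

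**Figure D1:**
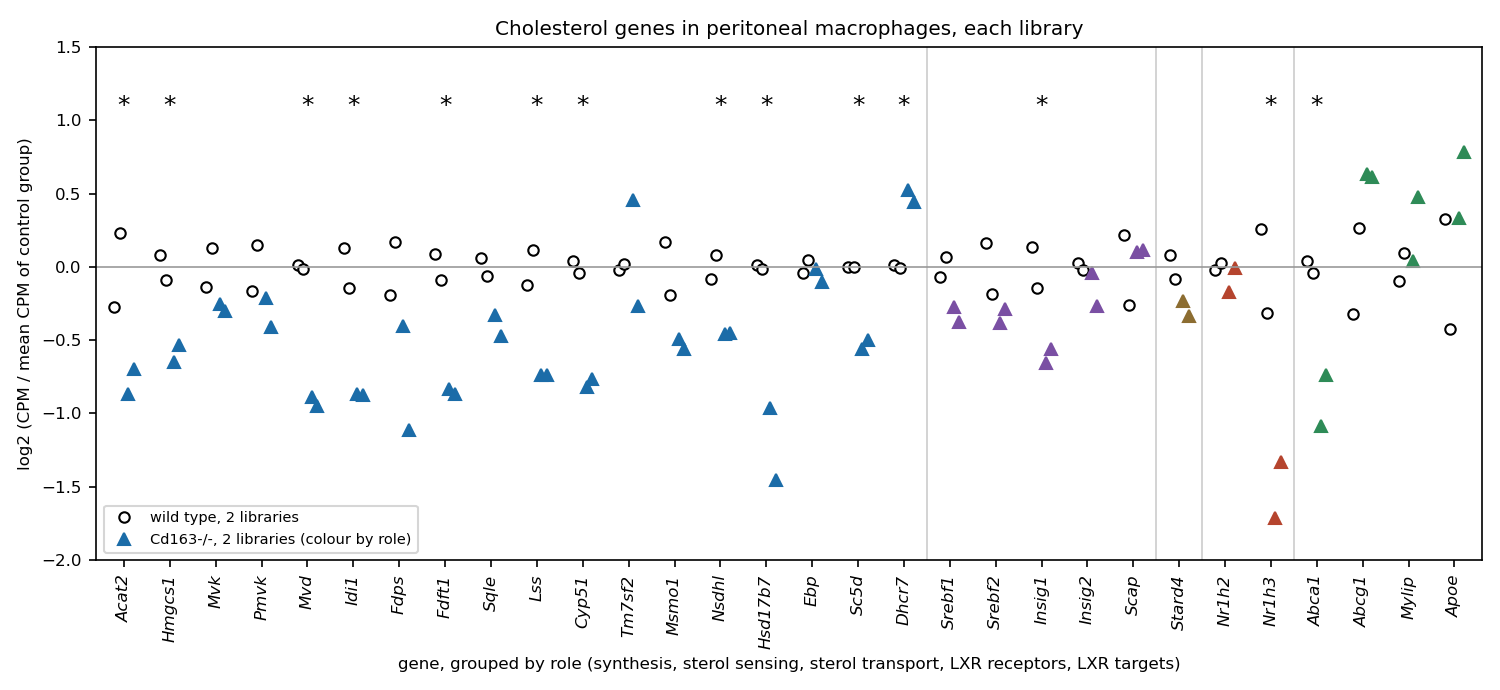
Each point is a macrophage library: the vertical axis gives its log2 ratio of CPM to the mean of the 2 wild type libraries, open circles are wild type and filled triangles Cd163-/- (colour by role), and a star marks the 14 genes past the adjusted p of 0.05. The triangles of 22 genes lie below both of their circles, and those of Dhcr7, Abcg1 and Apoe lie above.

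The first steps join acetyl units and lead to mevalonate. Acat2, the cytosolic thiolase that makes acetoacetyl-CoA, stood at 23.8 and 33.7 CPM in wild type and 15.7 and 17.7 CPM in knockout libraries, a log2 fold change of -0.78 (SE 0.20, adjusted p = 0.0367). Hmgcs1, which adds the third acetyl unit, stood at 238 and 211 CPM against 143 and 155 CPM, a log2 fold change of -0.59 (SE 0.13, adjusted p = 0.0233). In both genes the wild type libraries were the higher ones, and for Acat2 they differed from each other by more than the lower of them did from the higher knockout library. The kinases that phosphorylate mevalonate were not called. Mvk stood at 25.9 and 31.1 CPM in wild type and 23.9 and 23.2 CPM in knockout libraries, a log2 fold change of -0.28 with a 95% interval of -0.63 to 0.077, and Pmvk at 15.9 and 19.8 against 15.4 and 13.4 CPM, with an interval of -0.73 to 0.12.

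The steps from mevalonate diphosphate to squalene showed some of the clearest separation between groups. Mvd, the decarboxylase that yields isopentenyl diphosphate, stood at 62.7 and 61.7 CPM in wild type and 33.6 and 32.3 CPM in knockout libraries. Its log2 fold change was -0.92 (SE 0.11, adjusted p = 0.00403), and the libraries within each group lay close together. Idi1, the isomerase of isopentenyl diphosphate, stood at 87.2 and 72.1 against 43.5 and 43.3 CPM, a log2 fold change of -0.87 (SE 0.13, adjusted p = 0.00808). Fdft1, squalene synthase and the first enzyme committed to sterols, stood at 94.6 and 83.4 against 50.02 and 48.7 CPM, a log2 fold change of -0.85 (SE 0.12, adjusted p = 0.00632). In all of these genes both knockout libraries lay well below both wild type libraries. Fdps, which makes farnesyl diphosphate, had only 39 to 83 counts per library and was not called, at a log2 fold change of -0.71, adjusted p = 0.158. The counts of Fdps are uncertain because 26.7% of its annotated exon bases are shared with Gm43738 on the same strand, and those of Fdft1 because 18.3% are shared with Ctsb on the opposite strand and the library kit does not mark strand. In all, 10 of the 30 genes share exon bases with another gene, among them on the opposite strand Scap (13.2%, with 5830462I19Rik), Hmgcs1 (12.1%, with Gm48342) and Idi1 (9.22%, with Gm48574), whose counts carry the same uncertainty.

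From squalene to lanosterol and on to cholesterol, 5 more enzymes fell and 1 rose. Sqle, the epoxidase that opens this stretch, stood at 149.8 and 137 CPM in wild type and 114 and 103 CPM in knockout libraries and missed the threshold at a log2 fold change of -0.40 (SE 0.12, adjusted p = 0.0604). Lss, which closes the ring to lanosterol, stood at 57.99 and 68.3 against 37.8 and 37.9 CPM, a log2 fold change of -0.74 (SE 0.13, adjusted p = 0.0118). Cyp51, the lanosterol demethylase, stood at 219 and 206 against 120.1 and 125 CPM, a log2 fold change of -0.79 (SE 0.12, adjusted p = 0.00762). The knockout libraries of Lss and Cyp51 lay close together and far under the wild type pair. Hsd17b7, the 3-ketosteroid reductase, showed the largest decrease among the enzymes: 61.7 and 60.6 CPM in wild type and 31.4 and 22.3 CPM in knockout libraries, a log2 fold change of -1.19 (SE 0.18, adjusted p = 0.0081).

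Its partners in removing the methyl groups at carbon 4 moved less. Nsdhl, the decarboxylating dehydrogenase, stood at 45.5 and 51.04 CPM in wild type and 35.1 and 35.2 CPM in knockout libraries, a log2 fold change of -0.46 (SE 0.12, adjusted p = 0.0383). The call of Nsdhl held in only 5 of 9 alternative settings that kept every library. Msmo1, the methyl sterol oxidase, stood at 292 and 228 against 185 and 176 CPM and was not called, at a log2 fold change of -0.53, adjusted p = 0.0568. Ebp, the isomerase that shifts the ring double bond, showed overlapping groups at 36.003 and 38.3 against 36.7 and 34.6 CPM, with an interval of -0.35 to 0.23 on the log2 scale. Tm7sf2, a sterol reductase, also overlapped, at 9.09 and 9.34 against 12.7 and 7.67 CPM, and 12.1% of its exon bases are shared with Vps51.

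The last steps moved in opposite directions. Sc5d, which makes 7-dehydrocholesterol, stood at 143 and 143 CPM in wild type and 96.8 and 101 CPM in knockout libraries, a log2 fold change of -0.53 (SE 0.11, adjusted p = 0.0207). Dhcr7, which uses that product, stood at 38.3 and 37.7 against 54.5 and 51.6 CPM, a log2 fold change of 0.48 (SE 0.11, adjusted p = 0.0264). The ratio of Dhcr7 counts to Sc5d counts was therefore 0.268 and 0.264 in wild type and 0.563 and 0.510 in knockout libraries. The call of Dhcr7 was lost on leaving out any 1 of the 4 libraries, with adjusted p-values up to 0.161, although its log2 fold change stayed between 0.44 and 0.66 over all alternatives.

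Among the sterol-sensing genes only Insig1 was called in macrophages. Insig1, itself a target of SREBP2, stood at 261 and 215 CPM in wild type and 151 and 161 CPM in knockout libraries, a log2 fold change of -0.61 (SE 0.14, adjusted p = 0.0294). Srebf2, the transcription factor gene of the pathway, stood at 275 and 216 against 188 and 201 CPM, with an interval of -0.72 to 0.051 on the log2 scale. Srebf1, whose products include the fatty acid regulator SREBP1c, stood at 67.4 and 74.2 against 58.5 and 54.5 CPM and was not called, at a log2 fold change of -0.32, adjusted p = 0.087. Both SREBP genes were lower in both knockout libraries than in either wild type library, by less than the test requires. Insig2, which is not driven by SREBP2 in the same way, stood at 28.9 and 27.9 against 27.6 and 23.6 CPM, and the escort Scap overlapped at 45.03 and 32.3 against 41.5 and 41.9 CPM. Stard4, a carrier of sterol between membranes, stood at 73.6 and 65.8 against 59.3 and 55.3 CPM, with an interval of -0.57 to 0.0058.

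The LXR receptors differed from each other in macrophages. Nr1h3 (LXRα) stood at 113 and 76.2 CPM in wild type and 28.9 and 37.6 CPM in knockout libraries, the largest decrease of the 30 genes, with a log2 fold change of -1.51 (SE 0.23, adjusted p = 0.00808). Nr1h2 (LXRβ) overlapped between groups at 81.2 and 83.8 against 73.2 and 81.9 CPM, with an interval of -0.37 to 0.20. The ratio of Nr1h3 counts to Nr1h2 counts was 1.40 and 0.910 in wild type and 0.396 and 0.459 in knockout libraries.

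The targets of these receptors did not move as a group. Abca1, which loads cholesterol onto lipid-poor apolipoprotein A-I, stood at 868 and 819.9 CPM in wild type and 398 and 505 CPM in knockout libraries, a log2 fold change of -0.90 (SE 0.18, adjusted p = 0.017). Abcg1, which passes cholesterol to mature high-density lipoprotein, stood at 50.3 and 75.3 against 97.2 and 96.1 CPM, higher in both knockout libraries, and missed the threshold at a log2 fold change of 0.62 (SE 0.20, adjusted p = 0.0653). Of 9 alternative settings that kept every library, only 4 left Abcg1 not called, and the others called it higher. The pumps thus differed in direction, and the ratio of Abca1 counts to Abcg1 counts was 17.2 and 10.9 in wild type and 4.09 and 5.25 in knockout libraries. Apoe, secreted by macrophages as a cholesterol acceptor, stood at 18688 and 11118 CPM against 18802 and 25677 CPM, a log2 fold change of 0.58 (SE 0.42, adjusted p = 0.342). Its wild type libraries differed from each other by more than the higher of them did from the lower knockout library. Mylip overlapped between groups at 22.04 and 25.1 against 24.2 and 32.7 CPM. Without wild type replicate 2, Abcg1 was called at a log2 fold change of 0.94, and without wild type replicate 1, Apoe was called at 1.00.

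The 20 genes of the SREBP2 side (the synthesis enzymes, Insig1 and Stard4) were set against the 4 LXR targets in each library, as the mean log2 CPM of each side relative to the mean over the table. The SREBP2 side stood at 0.25 and 0.26 in wild type and -0.20 and -0.31 in knockout macrophages, with no overlap. The LXR side stood at -0.068 and -0.083 in wild type and -0.076 and 0.23 in knockout macrophages, where 1 knockout library matched the wild type and the other was higher. The difference between the sides was 0.67 lower on the log2 scale in knockout than in wild type macrophages (-0.67, pooled SD 0.21, n = 2 per group), and -0.51 with Apoe left out. No test was made of these means, because the genes were chosen with results known.

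**Figure D2:**
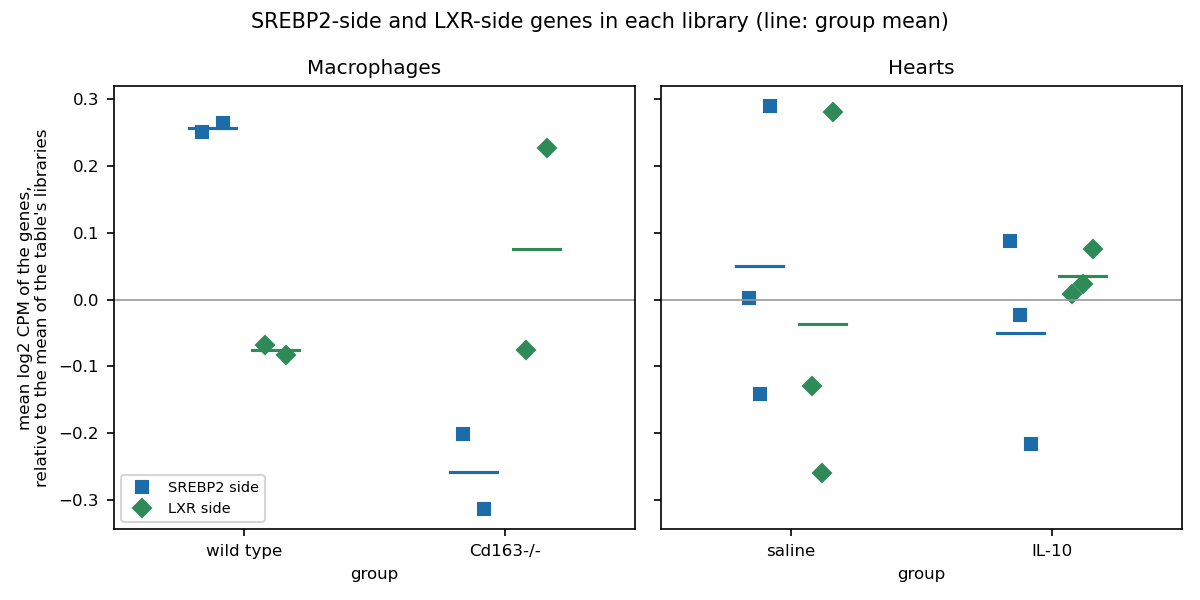
The vertical axis gives, for each library, the mean log2 CPM of the 20 SREBP2-side genes (squares) and of the 4 LXR targets (diamonds) relative to the mean of the table's libraries, with short lines at group means. In macrophages the squares drop from 0.25 and 0.26 in wild type to -0.20 and -0.31 in knockout libraries, and in hearts both kinds of point overlap between groups.

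Other genes of the pathway were read from lists beside the 30, and every count of called genes in them is to be read against the 13.1% of all genes that rose and the 13.3% that fell in macrophages. Of 9 further genes of sterol and isoprenoid synthesis, 2 fell and 0 rose in knockout macrophages, and all 9 had log2 fold changes below 0, with a median of -0.35 against 0.012 over all genes tested. Those that fell were Acss2, which makes acetyl-CoA from acetate (-1.20, adjusted p = 0.00569), and Nus1, a subunit of the enzyme that makes dolichol chains (-0.78, adjusted p = 0.0147). Of 10 tested genes of SREBP processing and sterol-regulated degradation, 2 fell: Rnf145, a ubiquitin ligase that acts on SCAP (-0.88, adjusted p = 0.013), and Erlin1, a membrane protein of the endoplasmic reticulum (-0.50, adjusted p = 0.0379). Of 10 tested genes of fatty acid synthesis, 2 rose and 0 fell: Lpin1, a phosphatidate phosphatase (2.15, adjusted p = 0.00236), and Fads1, a desaturase (0.57, adjusted p = 0.039). Fasn (-0.46, adjusted p = 0.0849) and Elovl6 (-0.73, adjusted p = 0.0573) were not called. By log2 fold change 5 of the 10 lay above 0 and 5 below. Knockout and wild type libraries did not overlap in 4 with the knockout lower and in 3 with the knockout higher. The shares over all genes were 34.1% and 35.3%. With lists this short, 2 called genes of 9 or 10 lie near the 13.1% and 13.3% of all genes called.

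Of 10 uptake receptors 2 rose and 3 fell in macrophages, where 13.1% of all genes rose and 13.3% fell. Dab2, an endocytic adaptor, stood at 149.9 and 176 CPM in wild type and 604 and 546 CPM in knockout libraries (1.82, adjusted p = 0.00157 on the log2 scale). The oxidised-lipoprotein receptor Olr1 stood at 30.5 and 24.2 against 4.14 and 1.94 CPM (-3.16, adjusted p = 0.00321), and the scavenger receptor Msr1 at 766 and 1157 against 500.4 and 367 CPM (-1.15, adjusted p = 0.0261). Of 11 tested genes of lysosomal release, storage and sterol transfer, 1 rose, Nceh1, a cholesteryl ester hydrolase (1.28, adjusted p = 0.0143), and 2 fell, Gramd1a (-0.90, adjusted p = 0.00959) and Gramd1b (-0.97, adjusted p = 0.0103), which carry cholesterol from the plasma membrane to the endoplasmic reticulum.

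All 3 tested oxysterol enzymes changed in macrophages. Ch25h, which makes 25-hydroxycholesterol, stood at 18.2 and 22.4 CPM in wild type and 1.15 and 0.500 CPM in knockout libraries, a log2 fold change of -4.59 (SE 0.35, adjusted p = 0.00116). Cyp7b1, which breaks oxysterols down, stood at 20.9 and 49.5 against 3.99 and 4.44 CPM, a log2 fold change of -3.06 (SE 0.43, adjusted p = 0.00654). Cyp27a1, which makes 27-hydroxycholesterol, stood at 6.48 and 3.11 against 17.7 and 23.2 CPM, a log2 fold change of 2.09 (SE 0.35, adjusted p = 0.0108). A maker and a remover of oxysterols were thus lower and another maker higher in both knockout libraries. Of 11 tested partners and further targets of LXR, 4 rose and 1 fell. Arl4c, a small GTPase and LXR target, stood at 3.80 and 3.81 against 45.3 and 33.1 CPM (3.36, adjusted p = 0.000766), the partners Rxrb (0.63, adjusted p = 0.0225) and Rxra (0.73, adjusted p = 0.0247) and the target Smpdl3a (0.71, adjusted p = 0.0447) were also higher, and the transporter Abca7 was lower (-0.77, adjusted p = 0.025).

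Markers of other cells differed between the same libraries. Of 5 mesothelial markers 3 rose and 0 fell, with summed levels of 80.5 to 115 CPM in wild type and 213 to 258 CPM in knockout libraries. Of 6 tested fibroblast markers 4 rose and 1 fell, with sums of 1138 to 1648 against 2378 to 3339 CPM. The 6 macrophage markers summed to 23547 to 28226 against 21155 to 22034 CPM, with Adgre1 lower (-0.80, adjusted p = 0.0273) and C1qa higher (0.85, adjusted p = 0.0479). Among the 4 neutrophil markers Retnlg had 0 counts in every library, S100a9 had 0 in the wild type libraries, and the sum was 8.61 to 20.9 CPM in wild type and 2.22 to 2.79 CPM in knockout libraries. Only 1 of the 4 passed the filter on low counts, and it was called lower (-2.58). Of 5 markers of dividing cells 1 fell and 0 rose, while 4 had log2 fold changes above 0. Their sums were 268 to 280 CPM in wild type and 134 to 216 CPM in knockout libraries. The part of these markers in the results was not tested, and in a bulk library fewer cells of a type and less RNA per cell cannot be told apart.

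The macrophage calls rested on 2 libraries per group. Without knockout replicate 1 only Mvd and Hsd17b7 were called, and without knockout replicate 2 only these and Nr1h3, while all 13 kept a negative log2 fold change. In both cases the lone knockout library was assumed to vary like the wild type pair, and calls over all genes fell from 1817 higher and 1846 lower to 360 and 374, and to 710 and 595. Without wild type replicate 1, 13 genes fell and 1 rose, and without wild type replicate 2 again 13 and 1. Dhcr7 was lost in both cases, and the gene that rose was Apoe in the former and Abcg1 in the latter, where Acat2 and Nsdhl were lost and Msmo1 and Srebf2 gained among the lower ones. Scaling by the upper quartile moved the median log2 fold change of all genes from 0.012 to 0.13, changed the calls over all genes to 2310 higher and 1403 lower, and left 10 of the 30 genes lower and 2 higher.

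In the hearts IL-10 treatment came with no called change in any of these genes. Of the 30 genes 29 passed the filter on low counts, and 0 of them were called in edgeR's quasi-likelihood test, where 6.86% of all 13718 genes tested rose and 6.7% fell. At an unadjusted p under 0.05 in the same test, 6 of the 29 lay past the line, against 3877 of all 13718 genes tested. After adjustment, limma-voom and DESeq2 also called 0 of the 29. The median log2 fold change was 0.03, against -0.0079 over all genes. IL-10 and saline libraries did not overlap, with IL-10 higher, in 2 of the 29 genes (Nr1h2 and Nr1h3), against 15.7% of all genes, and with IL-10 lower in 6 (Sqle, Lss, Nsdhl, Ebp, Stard4 and Abcg1), against 15.8% of all genes. The filter dropped Fdps, which had 0 to 4 counts per library.

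**Figure D3:**
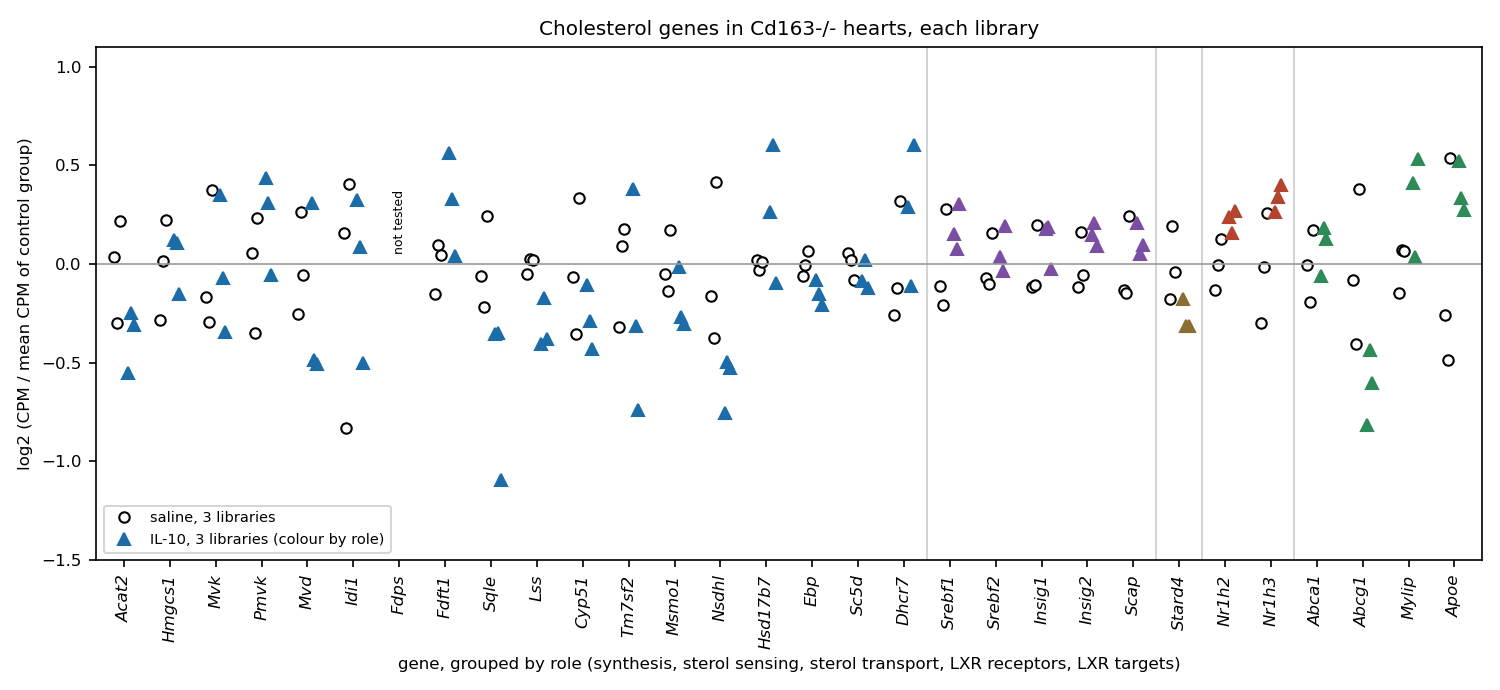
Each point is a heart library: the vertical axis gives its log2 ratio of CPM to the mean of the 3 saline libraries, open circles are saline and filled triangles IL-10 (colour by role), and Fdps was not tested. Triangles and circles overlap in 21 of the 29 genes tested, and those of Nr1h2 and Nr1h3 lie above their circles.

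The synthesis enzymes of the heart gave log2 fold changes in both directions, from -0.59 to 0.33, 7 above 0 and 10 below. Nsdhl stood at 7.61, 6.56 and 11.3 CPM in saline and 5.04, 6.02 and 5.91 CPM in IL-10 hearts, a log2 fold change of -0.59 (SE 0.22, adjusted p = 0.0794). Sqle stood at 4.32, 3.86 and 5.32 CPM against 3.52, 3.53 and 2.11 CPM, a log2 fold change of -0.56 (SE 0.27, adjusted p = 0.175). In both genes every IL-10 heart lay below every saline heart, and neither was called. Fdft1 stood at 18.9, 22.4 and 21.6 against 30.9, 26.3 and 21.6 CPM, with overlapping groups and a log2 fold change of 0.33, adjusted p = 0.138. Hmgcs1 stood at 23.4, 28.9 and 33.4 against 31.1, 30.8 and 25.7 CPM, and its 95% interval of -0.26 to 0.32 on the log2 scale lies above the macrophage estimate of -0.59. Of the 10 enzymes that fell in macrophages, 7 had a heart interval above their macrophage estimate and 3 had one that contains it. The intervals of Sc5d (-0.32 to 0.19), Cyp51 (-0.64 to 0.089) and Idi1 (-0.61 to 0.61) were likewise above the macrophage estimates of -0.53, -0.79 and -0.87, and so were those of Mvd, Fdft1 and Hsd17b7. The intervals of Acat2 (-0.95 to 0.22), Lss (-0.91 to 0.28) and Nsdhl (-1.05 to -0.14) contain the macrophage estimates of -0.78, -0.74 and -0.46, and that of Sqle (-1.12 to -0.0019), which was called in neither table, contains its -0.40. These counts leave out the error of the macrophage estimates, and the 10 enzymes were picked by their macrophage calls. The macrophage intervals of Mvd (-1.18 to -0.65), Idi1 (-1.20 to -0.55), Cyp51 (-1.08 to -0.50) and Sc5d (-0.80 to -0.26) overlap the heart intervals. Those of Hmgcs1, Fdft1 and Hsd17b7 do not. The comparisons ask about different treatments in different material, and the difference between them was not tested. The remaining enzymes ran from -0.37 for Acat2 to 0.29 for Dhcr7.

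All 5 sterol-sensing genes had estimates slightly above 0 in the hearts and overlapping groups. Insig2, the most abundant of them there, stood at 52.7, 63.9 and 54.9 CPM in saline and 63.2, 66.03 and 60.9 CPM in IL-10 hearts, with an interval of -0.083 to 0.38. Srebf2 stood at 26.8, 26.3 and 31.5 against 28.9, 27.5 and 32.3 CPM, with an interval of -0.19 to 0.32, and Srebf1 at 13.4, 12.5 and 17.6 against 16.1, 15.3 and 17.9 CPM, with an interval of -0.14 to 0.50. For these genes changes of more than about 0.5 on the log2 scale lie outside the intervals. Insig1 (-0.18 to 0.41) and Scap (-0.18 to 0.42) gave similar intervals. Stard4 stood at 8.56, 11.1 and 9.42 against 8.56, 7.79 and 7.80 CPM, lower at -0.27, adjusted p = 0.319.

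On the LXR side of the hearts, Nr1h3 stood at 11.9, 14.4 and 17.4 CPM in saline and 17.5, 18.4 and 19.3 CPM in IL-10 hearts, a log2 fold change of 0.33 (SE 0.15, adjusted p = 0.155). Nr1h2 stood at 29.9, 32.5 and 35.7 against 38.6, 36.4 and 39.4 CPM, a log2 fold change of 0.22 (SE 0.11, adjusted p = 0.209). For both receptors the highest saline heart lay just under the lowest IL-10 heart. Abca1 overlapped at 23.1, 20.3 and 26.1 against 22.2, 26.3 and 25.2 CPM, with an interval of -0.19 to 0.36. Abcg1 stood at 6.66, 5.32 and 9.16 against 4.004, 5.21 and 4.64 CPM, lower in every IL-10 heart, with a log2 fold change of -0.61 (SE 0.23, adjusted p = 0.0861). The ratio of Abca1 counts to Abcg1 counts was 3.46, 3.81 and 2.85 in saline and 5.53, 5.04 and 5.44 in IL-10 hearts, with no overlap. Mylip stood at 9.95, 11.6 and 11.5 against 14.6, 11.3 and 15.96 CPM (0.34, adjusted p = 0.172), and Apoe at 246, 209.6 and 426 against 422, 370.4 and 355 CPM (0.38, adjusted p = 0.213). Saline replicate 3 held the highest Apoe of all 6 hearts, and without it Apoe was called at a log2 fold change of 0.76 (adjusted p = 0.00454). Without saline replicate 2, Nsdhl and Abcg1 were called lower, at adjusted p-values of 0.0306 and 0.0326, and without IL-10 replicate 3, Fdft1 and Hsd17b7 were called higher, at 0.0339 and 0.0457. With no filter on low counts, Nsdhl was called lower and Apoe higher.

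The sides of the pathway did not separate the hearts. The SREBP2 side stood at 0.0029, -0.14 and 0.29 in saline and 0.087, -0.023 and -0.22 in IL-10 hearts, and the LXR side at -0.13, -0.26 and 0.28 against 0.0078, 0.024 and 0.076. The 20 genes of the SREBP2 side include Fdps, which had 0 to 4 counts per heart library. Part of the spread of this side may therefore be counting noise of a gene near the floor of detection. Saline replicate 3 was the highest library on both sides. The difference between the sides was -0.17 (IL-10 minus saline, pooled SD 0.14, n = 3 per group), close to the spread between libraries, and -0.048 with Apoe left out.

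**Figure D4:**
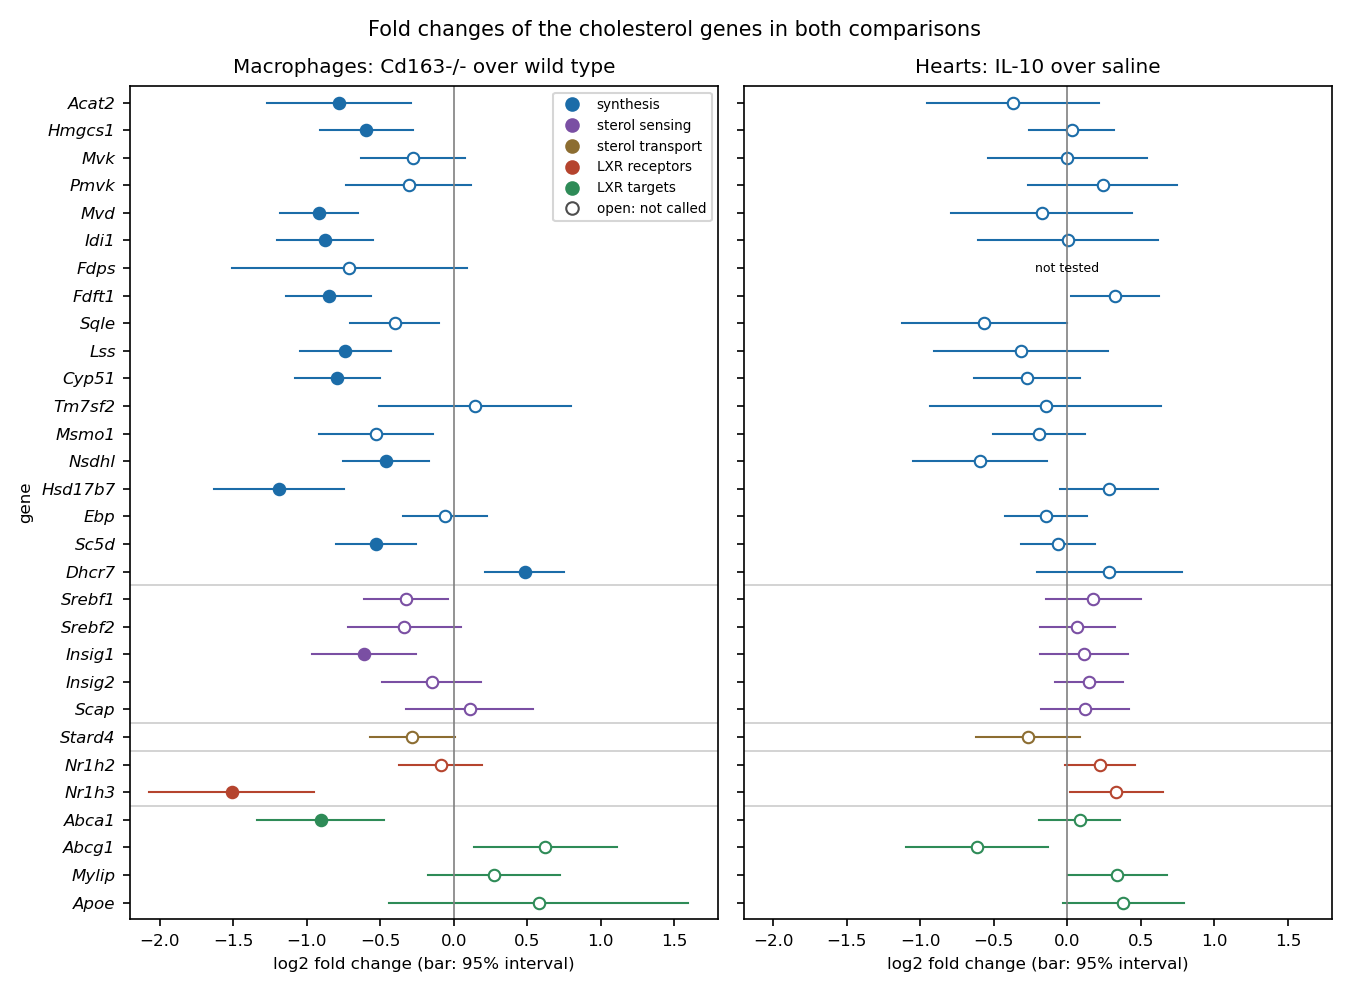
Horizontal axes give the log2 fold change of each gene with its 95% interval, for knockout over wild type macrophages on the left and IL-10 over saline hearts on the right, coloured by role, with filled points for called genes. On the left 13 filled points lie below 0 and 1 above, and on the right no point is filled.

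Other lists of the pathway held called genes in the hearts, all of them outside sterol synthesis, and their counts are to be read against the 6.86% of all genes that rose and the 6.7% that fell. Of 9 further genes of sterol and isoprenoid synthesis 0 were called, 5 above and 4 below 0, with Tmem97 nearest at -0.71, adjusted p = 0.0746. Of 11 genes of fatty acid synthesis 4 rose and 0 fell. Thrsp, a regulator of lipogenesis, stood at 9.37, 12.1 and 11.9 CPM in saline and 29.8, 29.2 and 20.4 CPM in IL-10 hearts (1.25, adjusted p = 0.000157). Mid1ip1, which helps acetyl-CoA carboxylase to assemble, stood at 29.1, 36.5 and 27.7 against 55.8, 52.1 and 49.4 CPM (0.76, adjusted p = 0.000886), and Lpin1 (0.42, adjusted p = 0.0412) and the NADPH source Me1 (0.36, adjusted p = 0.0321) were higher too. Fatty acid synthase and the desaturase Scd2 were not called, with Fasn at 0.097, adjusted p = 0.804 and Scd2 at -0.59, adjusted p = 0.0522.

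Of 9 tested uptake receptors 2 rose and 1 fell in IL-10 hearts, where 6.86% of all genes rose and 6.7% fell. Vldlr, the very-low-density lipoprotein receptor of muscle, stood at 182, 206 and 161 CPM in saline and 322, 327 and 282 CPM in IL-10 hearts (0.76, adjusted p = 0.000817). Cd36, which takes up fatty acids, stood at 1315, 1468 and 1082 against 1589, 2092 and 1798 CPM (0.50, adjusted p = 0.0332). Lrp8, an apolipoprotein E receptor, stood at 15.005, 13.3 and 19.2 against 3.24, 6.10 and 4.50 CPM (-1.78, adjusted p = 7.98e-05), and it was also lower in knockout macrophages (-0.95, adjusted p = 0.0152). In each of these every IL-10 heart lay on one side of every saline heart. Of 12 genes of lysosomal release and storage, Soat1, which esterifies cholesterol for storage, fell at -1.05, adjusted p = 0.000654 and Scp2, a lipid carrier of peroxisomes, rose at 0.47, adjusted p = 0.0154, and 1 of 12 in each direction is near the share over all genes. Of 11 tested LXR partners and targets, Rxra (0.62, adjusted p = 0.00172) and Smpdl3a (0.63, adjusted p = 0.00102) rose and 0 fell. Of 10 tested genes of SREBP processing and 3 tested oxysterol enzymes 0 were called.

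Markers of other cells also differed between the heart groups. All 5 markers of dividing cells fell with IL-10, with summed levels of 36.7 to 47.1 CPM in saline and 5.36 to 7.24 CPM in IL-10 hearts. Of 7 fibroblast markers 3 fell (Col1a1, Col3a1 and Postn) and 1 rose (Dcn), with sums of 3167 to 3628 against 2259 to 2859.8 CPM. Pdgfra (0.19), Tcf21 (-0.34) and Lum (-0.086 on the log2 scale) were not called. All 5 erythroid markers fell, with sums of 582 to 1189 against 300.4 to 548 CPM. The 6 macrophage markers summed to 467 to 811 against 671 to 735 CPM, with 1 lower (Cd68) and overlapping sums. The 8 cardiomyocyte markers summed to 36877 to 44807 against 30979 to 36403 CPM. Only 1 of these 8 was called, Actc1, which fell from a mean of 17702 CPM in saline to 10212 CPM in IL-10 hearts. By log2 fold change, 5 of the 8 lay above 0 and 3 below. The part of these markers in the results was not tested. Under upper-quartile scaling the calls over all genes went from 941 higher and 919 lower to 716 higher and 1120 lower, and 0 of the 29 genes were called.

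Levels of the genes were also set side by side per kilobase of annotated exon, with mitochondrial counts left out, as a description across tables that were counted separately. In saline-treated Cd163-/- hearts the most abundant of the 30 per kilobase were Apoe at 219.9 ± 85.9 CPM per kb (SD, n = 3), Insig2 at 26.3 ± 2.19 and Nr1h2 at 15.6 ± 1.20. In wild type macrophages they were Apoe at 6743 ± 2447 CPM per kb (SD, n = 2), Abca1 at 78.7 ± 3.47 and Insig1 at 74.3 ± 10.4. The heart thus held more Insig2 than Insig1, with a count ratio of Insig1 to Insig2 of 0.275, 0.228 and 0.328, and the macrophages more Insig1, with a ratio of 9.02 and 7.69. Insig2 was the only one of the 30 genes with a higher level per kb in these hearts than in wild type macrophages, where it stood at 7.90 CPM per kb.

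Among the enzymes, Hmgcs1 had the highest level per kb in wild type macrophages at 47.3 CPM per kb, followed by Cyp51 at 46.4 and Msmo1 at 40.9. In saline hearts Ebp led at 10.96 CPM per kb, ahead of Hmgcs1 at 9.93 and Fdft1 at 7.92. As a ratio of levels, Ebp differed least between the 2 kinds of material among the enzymes, at 15.6 CPM per kb in wild type macrophages, while Sqle stood at 1.30 CPM per kb in hearts and 24.997 in macrophages. Apoe and Abca1 were far lower in hearts, and the low level of Fdps in both is subject to the overlap named above.

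**Figure D5:**
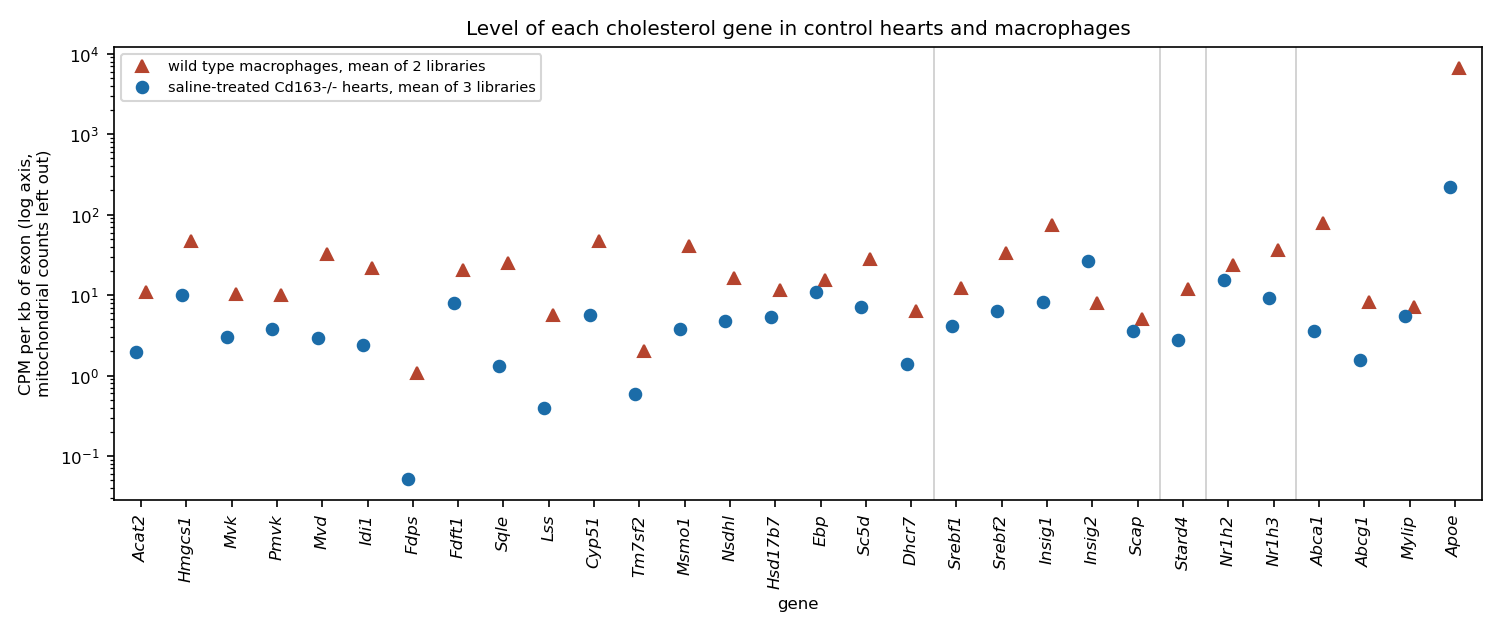
The vertical log axis gives the mean level of each gene in CPM per kb of exon, with mitochondrial counts left out, for wild type macrophages (triangles, 2 libraries) and saline-treated Cd163-/- hearts (circles, 3 libraries). Triangles lie above circles for 29 of the 30 genes, Insig2 being the exception.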

How the data were processed

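The deposited counts are whole reads per gene that the authors obtained with featureCounts after alignment by HISAT2 2.2.1, per the submitters' processing notes, and the featureCounts version and settings are not given in the sources used here. The labels name both GRCm39 and mm10 as build, so the build behind the counts is not settled, and positions are those of GENCODE on GRCm38. The extraction text speaks of livers, and the NEBNext Ultra kit does not mark strand. Of 55357 identifiers 52081 were named, and 0 value columns were left without a sample.

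Heart and macrophage tables were fitted apart in edgeR 4.0.16 (R 4.3.3) with filterByExpr (minimum count 10, total 15), TMM scaling and the quasi-likelihood test, with Benjamini-Hochberg adjustment over all genes tested and calls at adjusted p under 0.05. Alternatives were DESeq2 1.42.0 (its size factors and its Wald test), limma 3.58.1 voom, upper-quartile scaling, no filter, no mitochondrial genes, a replicate block and each library left out, and, chosen after seeing the data, library size alone, a crossed block and LXR targets without Apoe. The 30 genes and all lists were chosen with earlier results of these data known. All 30 genes are named, and of other lists up to 3 genes with the smallest p, plus Fasn, Scd2 and further called genes picked after their values were seen. A gene of the sterol and isoprenoid synthesis list is not reported here. The fits were checked on simulated counts. Groups of 3 and 2 are too small for a search for outlying libraries. Replicate pairs differed by more than counting noise (chi-square per degree of freedom 10.5 to 51.8), so none was treated as a library deposited again, which does not show that they came from separate animals or cultures.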

Additional observations from a re-analysis of the deposited data

How the results depend on the processing

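In macrophages 13 of the 30 genes were called lower and 1 higher, and DESeq2 size factors, limma-voom and leaving out mitochondrial genes gave the same counts. The count higher was 2 under upper-quartile scaling, 3 with no filter, 2 with the DESeq2 Wald test and 2 with library size alone, which left 8 lower. Leaving out each macrophage library in turn gave 2 to 13 lower and 0 to 1 higher. Mvd and Hsd17b7 stayed called lower under all of these alternatives. Same-numbered macrophage libraries deviated together with a correlation of -0.1, and those of hearts with -0.156, 0.0381 and 0.0125, so the numbers were not taken as pairs. With the replicate block, 9 genes were lower and 0 higher in macrophages, and 0 in either direction in hearts. With the crossed replicate block, 14 were lower and 2 higher. Over the 9 alternative settings that kept every macrophage library, the call held in 5 for Nsdhl and 6 for Insig1. It held in 7 each for Acat2, Hmgcs1 and Sc5d, and in all 9 for the rest of the 13.

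In hearts 0 genes were called, except 1 higher and 1 lower with no filter, and 0 to 2 in either direction on leaving out each library in turn. Directions near 0 turned: under upper-quartile scaling Hmgcs1 (-0.018), Mvk (-0.047) and Idi1 (-0.043) in hearts and Ebp (0.054) and Nr1h2 (0.024) in macrophages, under library size alone Hmgcs1 (-0.034), Mvk (-0.060) and Idi1 (-0.061) in hearts and Ebp (0.12), Insig2 (0.028) and Nr1h2 (0.086) in macrophages, and under limma-voom Mvk in hearts (-0.0062). Leaving out libraries in turn gave ranges of -0.094 to 0.17 for Hmgcs1, -0.20 to 0.24 for Mvk, -0.28 to 0.27 for Idi1 and -0.50 to 0.090 for Tm7sf2 in hearts, and of -0.26 to 0.45 for Tm7sf2 and -0.12 to 0.37 for Scap in macrophages. The cause was not tested. The difference between the sides ranged from -0.26 to -0.070 in hearts and from -0.87 to -0.46 in macrophages on leaving out libraries. At 0 to 4 counts per library, Fdps could not be tested in hearts, but it is part of the SREBP2 side there.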
